A study of Mus musculus with 9 samples.

Results

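The RNA-seq arm of a mouse colon study was examined at the level of single transcripts, in 2 libraries labelled DKO and 2 labelled Wt, chosen by their titles from the 9 libraries of the series. Each of the 4 files lists the same 140992 transcripts by Ensembl identifier, and a gene table with 17511 genes holds the authors' own comparison of DKO with Wt. The cells were colon epithelial cells loosened from fresh tissue with EDTA and strained, and total RNA was sequenced as single-end reads. By the strain labels, all 4 libraries carry Cdx1-/- and the floxed allele Cdx2f/f, and all mice received tamoxifen for 6 days. The DKO libraries are tagged vill (+) and the Wt libraries vill (-). The labels do not spell out this tag, do not give age or sex, and name Wt libraries whose strain is Cdx1-/-. Whether the 2 libraries of a group are different mice is not stated in the labels. The p-values below therefore cover the spread between these samples alone, and that spread may be technical.

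Cdx1 and Cdx2 are homeobox transcription factors that set the identity of intestinal epithelium. The colon epithelium consists mainly of absorptive colonocytes, which take up salt and water, and goblet cells, which secrete the gel-forming mucin Muc2 and the proteins packed with it. A gene can give several transcripts through alternative splicing, other start sites or other polyadenylation sites, and the program Salmon divides reads among them by estimation. The measures of a transcript's level used here follow from this division. CPM is its estimated reads scaled to a common library size and grows with transcript length, whereas TPM corrects for the length that reads can cover. In bulk samples such as these, fewer cells of a type and less RNA per cell cannot be told apart.

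The libraries held 21197446 (DKO 1), 20069555 (DKO 2), 16403301 (Wt 1) and 25494309 (Wt 2) estimated reads. At least 1 read was assigned to 51411, 53331, 50738 and 56572 transcripts in the same order. In all, 32044 transcripts had a read in each library and 62487 in none. A count of 0 allows up to 0.142, 0.149, 0.183 and 0.118 CPM in these libraries, taking 3 reads as the limit. The 20 pan-epithelial marker genes were all measured, and together held 3.11% of the DKO and 3.36% of the Wt normalized counts, as worked out from the authors' deposited table. Cdx2, the floxed gene, stood at -0.27 on the log2 scale (adjusted p = 0.301, SE 0.21) in the authors' deposited table, and no value per exon was analysed here. Cdx1 fell by 1.06 on the log2 scale (adjusted p = 2.08e-05, SE 0.23) in the authors' deposited table, although the labels give it as null in both groups. At an adjusted p under 0.05, the DKO libraries had 3231 of 17511 genes called higher (18.5%) and 3211 called lower (18.3%) by the authors' deposited table.

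Promoter sequences are shown first for 2 abundant genes with opposite changes and unlike open chromatin, Fcgbp and Atp1b1. Both windows run from 250 bases before to 50 bases after the start of the gene on GRCm38.p6, taken from RefSeq, and are written on the strand of the gene. Fcgbp, a secreted protein of the goblet cell mucus, lies at chr7:28070986-28071285 on the plus strand. Its window held an ATAC-seq peak in both Wt peak lists, with fold enrichments of 6.63 and 6.07 as the authors called them, and in neither DKO list. Atp1b1, the beta subunit of the sodium pump, lies at chr1:164458306-164458605 on the minus strand. Its window held a peak in all 4 lists, at 3.21 and 3.45 in DKO and 4.76 and 4.96 in Wt.
Fcgbp: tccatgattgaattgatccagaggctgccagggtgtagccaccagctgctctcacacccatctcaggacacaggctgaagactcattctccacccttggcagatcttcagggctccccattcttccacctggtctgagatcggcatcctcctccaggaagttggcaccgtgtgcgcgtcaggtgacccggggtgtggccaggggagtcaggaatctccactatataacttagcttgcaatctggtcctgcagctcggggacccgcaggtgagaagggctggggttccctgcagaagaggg
Atp1b1: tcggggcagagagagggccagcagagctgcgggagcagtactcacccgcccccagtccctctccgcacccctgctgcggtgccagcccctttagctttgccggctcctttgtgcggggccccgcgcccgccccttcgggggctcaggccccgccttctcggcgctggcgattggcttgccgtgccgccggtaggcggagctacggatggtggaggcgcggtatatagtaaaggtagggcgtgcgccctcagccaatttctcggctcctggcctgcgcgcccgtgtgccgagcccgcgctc
Of the 11809 genes with a window, 16% and 33.4% held a peak in DKO 1 and DKO 2, against 75.9% and 77.9% in Wt 1 and Wt 2, so a window with peaks in Wt alone was common.

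A further set shows windows with a match to the 8-letter sequence known from Cdx binding studies, searched on both strands as GCAATAAA, GCCATAAA, GTAATAAA and GTCATAAA (capitals mark the match, or its reverse complement). Among the genes named here that have a window, 4 held a match, in 1 window each. Mptx2, a secreted pentraxin (chr1:173277707-173278006, minus strand), fell 37.3-fold in the authors' deposited table. Xbp1, a transcription factor of secretory cells (chr11:5520391-5520690, plus strand), rose 2.10-fold in the authors' deposited table. Muc13, a transmembrane mucin (chr16:33793787-33794086, plus strand), was not called in either direction, at 61306 normalized counts in DKO and 59152 in Wt, worked out from the authors' deposited table. The fourth was Prpf19, described with the spliceosome genes.
Mptx2: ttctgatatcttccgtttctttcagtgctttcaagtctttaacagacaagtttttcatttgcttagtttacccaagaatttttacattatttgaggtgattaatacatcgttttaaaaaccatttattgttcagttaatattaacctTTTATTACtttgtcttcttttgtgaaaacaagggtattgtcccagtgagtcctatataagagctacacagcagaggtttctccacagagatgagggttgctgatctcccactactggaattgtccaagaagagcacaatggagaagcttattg
Xbp1: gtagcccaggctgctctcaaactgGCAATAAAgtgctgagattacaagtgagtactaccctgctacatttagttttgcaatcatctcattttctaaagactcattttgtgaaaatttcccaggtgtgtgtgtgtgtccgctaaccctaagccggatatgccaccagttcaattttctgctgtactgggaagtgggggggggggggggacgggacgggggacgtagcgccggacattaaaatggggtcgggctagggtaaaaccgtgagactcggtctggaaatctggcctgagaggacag
Muc13: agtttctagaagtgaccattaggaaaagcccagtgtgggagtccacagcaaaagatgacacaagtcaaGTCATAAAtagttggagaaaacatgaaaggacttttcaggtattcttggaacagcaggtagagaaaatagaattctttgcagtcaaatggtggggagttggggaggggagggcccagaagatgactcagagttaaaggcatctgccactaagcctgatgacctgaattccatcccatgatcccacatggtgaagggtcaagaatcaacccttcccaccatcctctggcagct
The sequence occurred in 1123 of all 32851 windows (3.42%). Counted by gene, which is a different unit, it occurred in 272 of the 11809 genes with a window (2.3%). These were 42 of 2432 that the authors' deposited table called higher (1.73%), 76 of 2312 that it called lower (3.29%) and 154 of 7065 that it called neither (2.18%). A Cdx2 ChIP-seq peak lay in the window of 44 (1.81%), 56 (2.42%) and 146 (2.07%) genes of these 3 classes, against 246 of all 11809 (2.08%). None of the windows of the named genes held one. These shares are descriptions, without a test, and a match is not a shown binding site.

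The genes that held the most counts differed between the 2 states mainly through the Wt side. Group levels, in normalized counts, were worked out from the mean count and the log2 fold change in the authors' deposited table, which has no value per library, so these levels carry the table's SE and no SD. They are not corrected for gene length and are therefore compared between groups, not between genes. Of the 20 genes with the most counts in each group, 12 were in both lists, as worked out from the authors' deposited table. The 20 leading genes of Wt included, by the authors' deposited table, 1 called higher and 8 called lower, and held 16.5% of the Wt counts against 8.94% of the DKO counts. The 20 leading genes of DKO included, by the authors' deposited table, 3 called higher and 0 called lower, and held 11.2% of the DKO counts against 10.1% of the Wt counts. Since each list was chosen for its level in 1 group, the split of calls in it is a description. By the authors' deposited table, 19 of the 100 genes with the most counts over both groups were higher, 28 lower and 53 neither. The share higher, 19%, is near the 18.5% of all genes, of which 18.3% were called lower.

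The Wt list was led by goblet cell products. Clca1, a secreted goblet cell protein (chromosome 3, 145004537 to 145032776), stood first in Wt at 564859 normalized counts and at place 8241 in DKO at 278, worked out from the authors' deposited table. It alone held 2.64% of the Wt counts in the authors' deposited table. Fcgbp fell 21.0-fold, from 423465 to 20147 (log2 fold change -4.39, adjusted p = 2.67e-69, SE 0.25), in the authors' deposited table. Muc2 (chromosome 7, 141690340 to 141754691) fell 30.9-fold, from 284853 to 9228, with an SE of 0.20 in the authors' deposited table. Zg16, a lectin of the mucus layer, fell from 84474 to 3882 in the authors' deposited table. These genes were among the 14 of 17 measured goblet cell genes called lower, with 0 called higher, in the authors' deposited table. The share lower was 82.4%, whereas 18.3% of all genes were called lower and 18.5% higher. The median of the goblet cell genes was -3.15 on the log2 scale in the authors' deposited table, against -0.02 over all genes. As a group the goblet genes held 7.09% of the Wt counts and 0.36% of the DKO counts, worked out from the authors' deposited table. Without Clca1 these shares were 4.45% and 0.358%, worked out from the authors' deposited table. Colonocyte genes stood on the same side. Car1, a carbonic anhydrase of colonocytes, fell 6.53-fold, from 156053 to 23900, in the authors' deposited table. Muc3, a transmembrane mucin of the brush border, fell from 72489 to 9668 in the authors' deposited table. Mptx1, a pentraxin like Mptx2, fell from 64997 to 1612 with a wide SE of 0.84 in the authors' deposited table. Reads of Mptx1 and Mptx2, as of other close copies, may be divided between them.

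Of the genes of the DKO list that rose, those described here are a subunit of an ion pump and a translation factor. Atp1b1, whose promoter is shown above, rose 2.21-fold, from 25177 to 55656 (adjusted p = 4.59e-05, SE 0.26), in the authors' deposited table. Eef1a1, which brings aminoacyl-tRNA to the ribosome, rose 1.69-fold, from 97470 to 164434 (adjusted p = 9.1e-05, SE 0.18), in the authors' deposited table. It stood in the leading 20 of both groups, and is the single gene of the Wt list that rose.

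Most leading DKO genes were not called in either direction. Sprr2a2, a small proline-rich epithelial protein, held 238460 counts in DKO and 296986 in Wt (log2 fold change -0.32, adjusted p = 0.315, SE 0.25) in the authors' deposited table. Lypd8, a secreted protein that keeps flagellated bacteria off the colon surface, held 201340 and 252001 in the authors' deposited table. Dmbt1, a mucosal scavenger receptor glycoprotein, held 198537 and 155391 in the authors' deposited table. The keratin Krt8 held 148923 and 170997, and its relative Krt19 held 126158 and 104728, in the authors' deposited table. Galectin Lgals4 stood nearest to the threshold among these genes, with a log2 fold change of -0.45 (adjusted p = 0.0588, SE 0.20) in the authors' deposited table. A p that misses the threshold does not show equal levels.

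**Figure D1:**
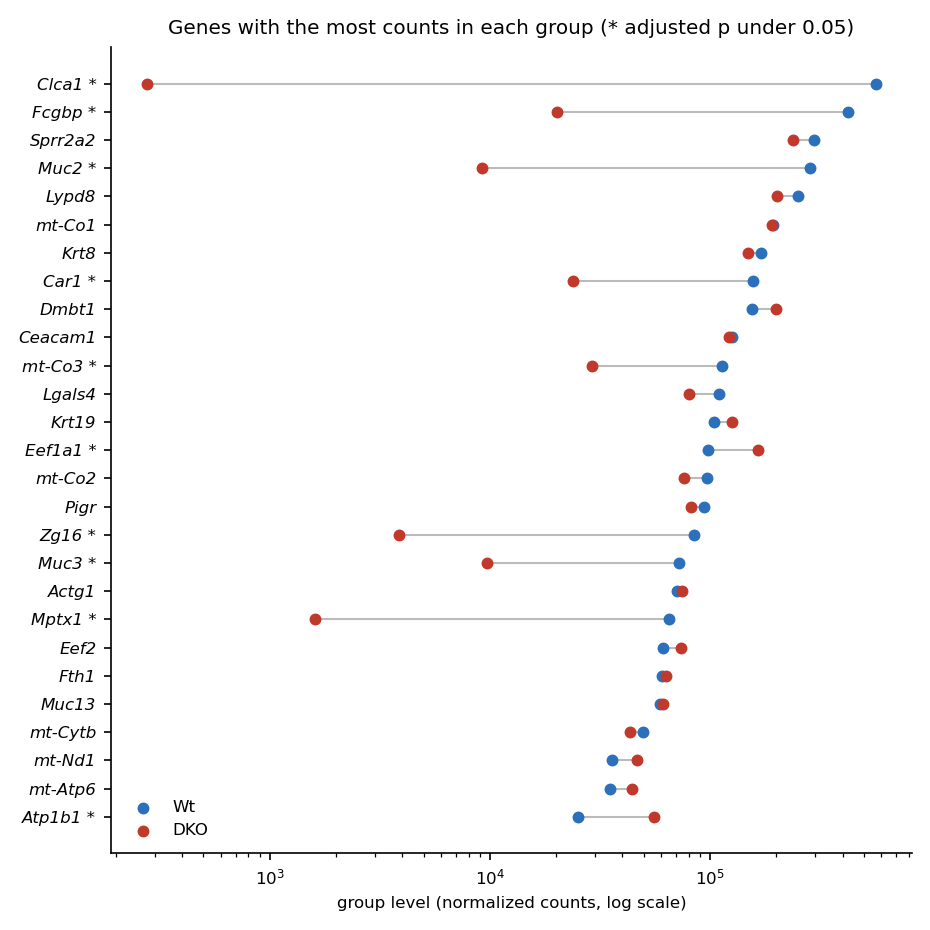
Group levels in normalized counts (log scale) of the named genes with the most counts in DKO (red) or Wt (blue), worked out from the authors' deposited table, with no error bars because the table has no value per library; an asterisk marks an adjusted p under 0.05. Clca1 spans the widest gap, from 564859 in Wt to 278 in DKO, while mt-Co1 sits at 192362 and 191579.

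Mitochondrially encoded genes, all transcribed from the same small genome, did not move as a block. By the authors' deposited table, 1 of 15 measured was higher and 1 lower (6.67% each), against 18.5% and 18.3% over all genes. Their median was -0.02 on the log2 scale. mt-Co3, a subunit of cytochrome c oxidase, fell 3.91-fold, from 113438 to 28994 (adjusted p = 5.53e-11, SE 0.29), in the authors' deposited table. mt-Co1, another subunit of the same enzyme, held 192362 counts in Wt and 191579 in DKO (log2 fold change -0.01, SE 0.38) in the authors' deposited table. mt-Nd5, a subunit of complex I, rose 2.14-fold, from 9495 to 20342 (adjusted p = 0.0032, SE 0.35), in the authors' deposited table. The SEs of these genes were wide for their level. Over the 13 with a mean of at least 1000 counts the median SE was 0.36, against 0.22 over all 4178 such genes in the authors' deposited table. Nuclear copies of mitochondrial sequence can take reads from these genes.

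Cytosolic ribosomal protein genes stayed near the centre of the distribution, with a median of 0.03 on the log2 scale in the authors' deposited table. There 4 of 77 were called higher (5.19%) and 1 called lower (1.3%), against 18.5% and 18.3% over all genes. Rplp0, of the ribosomal stalk, rose 1.63-fold (adjusted p = 0.0396, SE 0.30), and Rps15 fell by 0.56 on the log2 scale (adjusted p = 0.0345, SE 0.23), in the authors' deposited table. Translation factors had 9 of 34 members called higher (26.5%) and 1 called lower (2.94%), against 18.5% and 18.3% over all genes, and a median of 0.25 in the authors' deposited table. With a limit of 2-fold, 2 of them passed as higher and 0 as lower in the authors' deposited table. Beside Eef1a1, the factors called higher at less than 2-fold included Eif5, which stimulates GTP hydrolysis by eIF2 at the start codon (0.83, SE 0.24), in the authors' deposited table. Eif3c, a subunit of the initiation complex eIF3 (0.46, SE 0.17), was another in the authors' deposited table. The helicase gene Eif4a2 fell by 0.81 on the log2 scale (adjusted p = 0.000204, SE 0.20) in the authors' deposited table. By the authors' deposited table, 5 of 22 abundant housekeeping genes, often used as references, were higher (22.7%) and 1 was lower (4.55%). The share higher is near the 18.5% of all genes. Pgk1, a glycolytic enzyme, rose 1.62-fold and Sdha, of respiratory complex II, fell by 0.48 on the log2 scale in the authors' deposited table.

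Isoform use itself, the share of each transcript within its gene, was not tested, because no file used here pairs the transcript identifiers with genes. The genes that act on transcript choice could be read at gene level. By the authors' deposited table, 19 of 50 measured regulators of alternative splicing were higher in DKO and 10 lower, or 38% and 20% against 18.5% and 18.3% over all genes, and the median was 0.37 on the log2 scale. Srsf5, an SR protein that promotes exon inclusion, rose 3.32-fold, from 2777 to 9224 counts (adjusted p = 1.61e-15, SE 0.21), in the authors' deposited table. Ptbp1, a repressor of exons flanked by pyrimidine tracts, rose 2.05-fold, from 4011 to 8242 (adjusted p = 4.34e-08, SE 0.18), in the authors' deposited table. Hnrnpk and Hnrnpf, RNA-binding proteins of the hnRNP class, rose 1.74-fold (SE 0.22) and 1.49-fold (SE 0.20) in the authors' deposited table. Rbm10, an RNA-binding protein that promotes exon skipping, fell by 1.73 on the log2 scale, from 1240 to 375 counts (adjusted p = 4.16e-13, SE 0.23), in the authors' deposited table. Tra2a, an SR-like protein that promotes exon inclusion, fell by 1.68, from 1170 to 367 counts (adjusted p = 1.48e-08, SE 0.28), in the authors' deposited table. Hnrnpc, an hnRNP protein that binds uridine tracts, fell by 0.60 (SE 0.20) and Srsf1, an SR protein, by 0.61 (SE 0.23) in the authors' deposited table. These members were named after the calls were seen. With a limit of 2-fold, 10 regulators passed as higher and 6 as lower in the authors' deposited table.

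Core spliceosome genes had a median of 0.03 in the authors' deposited table, where 7 of 40 were called higher (17.5%) and 2 called lower (5%), against 18.5% and 18.3% over all genes. The share called higher is thus near that of all genes. Dhx15, a helicase that takes spent spliceosomes apart, rose 2.48-fold (adjusted p = 4.51e-08, SE 0.23) in the authors' deposited table. Prpf19, a ubiquitin ligase of the spliceosome, rose 2.11-fold (SE 0.27), and Sf3b1 and Sf1, which recognise the branch point, rose 1.57-fold and 1.62-fold, in the authors' deposited table. Cleavage and polyadenylation genes had a median of 0.18 in the authors' deposited table, where 6 of 22 were called higher (27.3%) and 1 called lower (4.55%), against 18.5% and 18.3% over all genes. With a limit of 2-fold, 2 of them passed as higher and 0 as lower in the authors' deposited table. Cpsf6, a subunit of cleavage factor I that steers the choice of polyadenylation site, rose 2.99-fold, from 648 to 1940 counts (adjusted p = 3.76e-10, SE 0.24), in the authors' deposited table. Pabpc1, the cytoplasmic poly(A)-binding protein, rose 1.47-fold (adjusted p = 0.0214, SE 0.21), and the scaffold gene Sympk fell by 0.87 on the log2 scale (SE 0.28), in the authors' deposited table. By the authors' deposited table, 2 of 18 genes of nonsense-mediated decay and translation termination were higher (11.1%, against 18.5% over all genes) and 0 lower. They were Etf1, the release factor that reads stop codons (2.70-fold, SE 0.20), and Smg1, the kinase that activates Upf1 (1.95-fold, SE 0.36), in the authors' deposited table. Whether any transcript changed its share within its gene along with these genes was not tested. Of 10 listed long noncoding RNAs, Norad rose 1.84-fold and Neat1, the scaffold of paraspeckles, fell by 1.61 on the log2 scale with an SE of 0.32, in the authors' deposited table.

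Markers of several other cell types moved with the groups, and their part in the results above was not tested. The counts of calls below stand against 18.5% of all genes called higher and 18.3% called lower in the authors' deposited table. Fibroblast genes were lower in 15 of 16 (summed level 12668 in Wt and 1281 in DKO), smooth muscle genes in 15 of 16 (37919 and 8065, or 30381 and 1765 without Tpm1) and enteric neuron and glia genes in 12 of 16 (1138 and 348, or 1050 and 77.8 without Ret), worked out from the authors' deposited table. B and plasma cell genes were lower in 8 of 13 and higher in 1, Xbp1, with sums of 42989 in Wt and 13206 in DKO, worked out from the authors' deposited table. These sums were 38587 and 3952 without Xbp1, and 21442 and 11251 without Igha, worked out from the authors' deposited table. Igha, the heavy chain of IgA, fell 11-fold in the authors' deposited table. Neutrophil genes were higher in 11 of 12 measured (1324 in Wt, 8474 in DKO, or 70.0 and 3812 without Ly6g) and erythroid genes in 4 of 5 (1748 and 4793), worked out from the authors' deposited table. For T cell genes, 4 of 18 were higher (22.2%) and 0 lower (774 and 1263), worked out from the authors' deposited table. That share higher is near the 18.5% of all genes. For endothelial genes 1 of 16 was higher and 13 lower (2550 and 1423, or 2447 and 322 without Lyve1), worked out from the authors' deposited table. The macrophage list had 1 of 15 genes higher and 4 lower, with sums of 3061 in Wt and 4643 in DKO that turn to 2280 and 1146 without Cd14, worked out from the authors' deposited table. The adipocyte list had 2 of 10 higher (20%, near the share of all genes) and 6 lower (60%) in the authors' deposited table. Its sums were 3609 in Wt and 7099 in DKO, or 3373 and 3110 without Fabp4, worked out from the authors' deposited table. For Paneth genes, 3 of 9 were higher and 3 lower (33.3% each) in the authors' deposited table. Among them Mmp7, a matrix metalloproteinase, stood at 5250 in DKO and 58.5 in Wt, worked out from the authors' deposited table. The Paneth sums were 66785 in Wt and 8026 in DKO, worked out from the authors' deposited table. They became 66726 and 2776 without Mmp7, 38355 and 7923 without Itln1, and 37393 and 8018 without Ang4, worked out from the authors' deposited table. Ang4 is also a member of the goblet list, so its counts stand in both sums and the lists are not separate. Absorptive colonocyte genes were lower in 14 of 20 (70%) with a median of -1.68 in the authors' deposited table. There 5 of 20 pan-epithelial genes were higher (25%) and 8 lower (40%), with a median of -0.40. The largest of these sums outside the epithelium, that of B and plasma cell genes in Wt, was 0.201% of the counts, worked out from the authors' deposited table. Of the sex-linked genes, the 4 on the Y chromosome were measured with 0 calls, and Eif2s3y held 829 counts in DKO and 775 in Wt in the authors' deposited table. Their SEs were wide, at 0.92 for Eif2s3y and Ddx3y, 0.87 for Kdm5d and 0.73 for Uty, against a median of 0.28 over genes with a mean of at least 50 counts in the authors' deposited table.

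**Figure D2:**
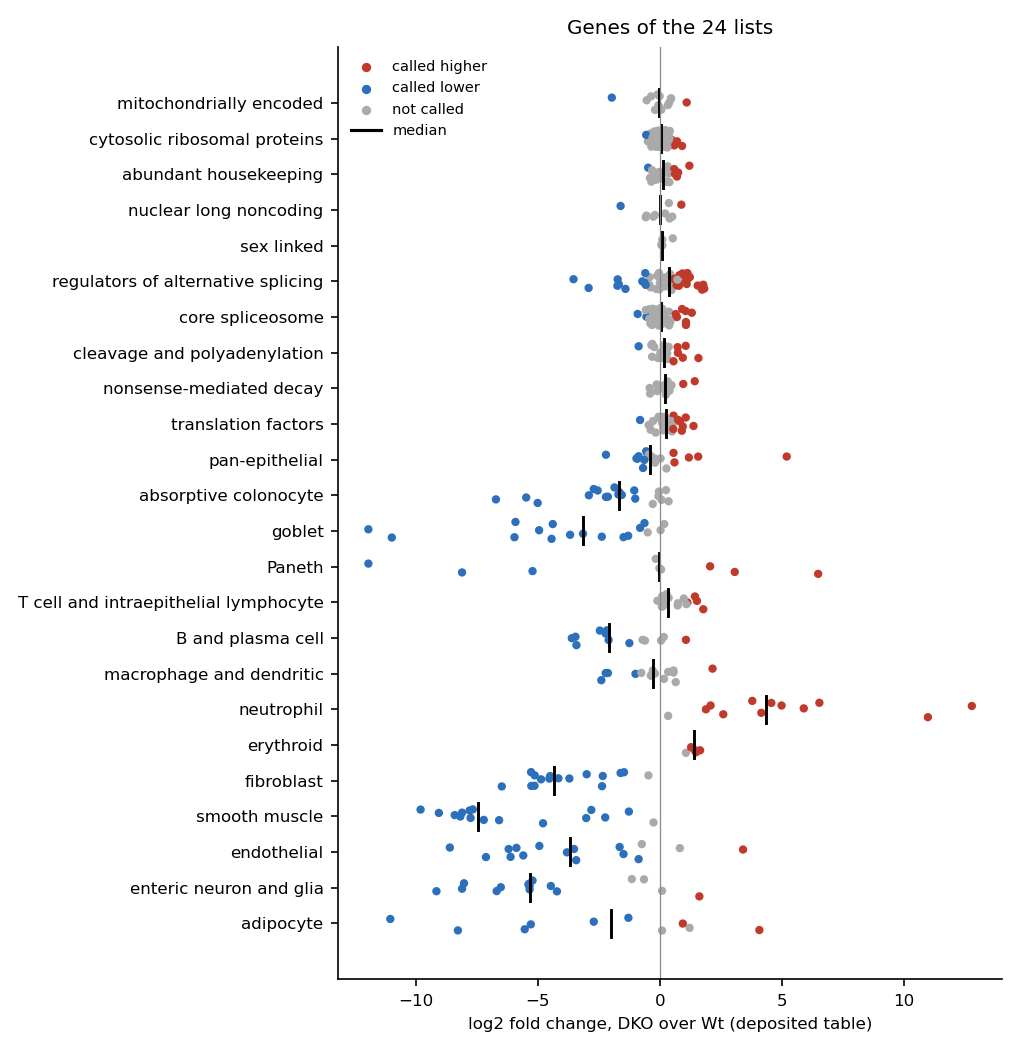
Log2 fold change, DKO over Wt, of each measured gene in the 24 lists, from the authors' deposited table; red and blue points passed an adjusted p under 0.05, grey points did not, and the black bar is the list's median. Ribosomal, mitochondrial and core spliceosome lists centre near 0 (medians 0.03, -0.02 and 0.03), and the goblet list centres at -3.15.

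At transcript level, reads were more concentrated in Wt. The 100 transcripts with the most reads held 20.6% and 22.1% of reads in DKO and 26.2% and 25.7% in Wt. The leading 10 held 7.68% and 7.64% against 9.84% and 9.04% in Wt, whereas the leading 1000 held 49.3% and 49.9% against 53.4% and 54.0%. At each of these list sizes both Wt libraries lay above both DKO libraries, although 2 against 2 libraries cannot give a two-sided exact permutation p below 0.333. The 95% Wilson intervals of these shares reach at most 0.024 percentage points to either side and cover counting error only. Transcripts at 1 TPM or more numbered 27348 and 28169 in DKO and 25276 and 24601 in Wt.

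**Figure D3:**
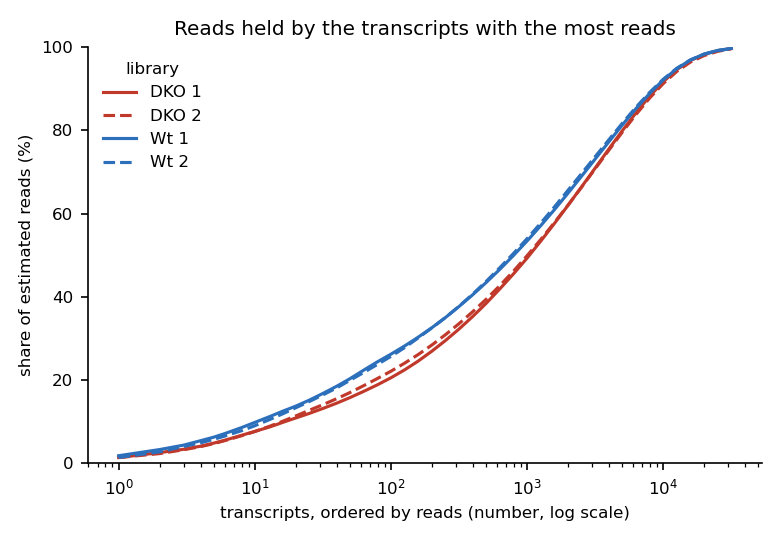
Cumulative share of estimated reads (%) held by transcripts ordered from most to fewest reads in each library (log scale), DKO in red and Wt in blue, replicate 2 dashed. At 100 transcripts the DKO curves stand at 20.6% and 22.1% and the Wt curves at 26.2% and 25.7%.

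By the edgeR quasi-likelihood test, 1910 of 35302 tested transcripts were higher (5.41%) and 1671 lower (4.73%) in DKO. The called transcripts carried a large part of the reads: those called higher held 14.6% and 15.3% of reads in the DKO libraries and 3.97% and 3.90% in Wt. Transcripts called lower held 17.0% and 16.3% of reads in Wt and 2.99% and 2.98% in DKO. Of the 100 tested transcripts with the highest mean CPM, 9 were higher and 17 lower (26%), against 10.1% called over all tested. Their median absolute log2 fold change was 0.59, against 0.95 over all tested. Groups did not overlap for 68.6% of tested transcripts, so separation of 2 libraries from 2 others was common. With any 1 of the 4 libraries left out edgeR called 0 transcripts in either direction, with 8428 to 10554 at an unadjusted p under 0.05, whereas DESeq2 on all 4 called 5048 higher and 4559 lower. Of the calls, 708 higher transcripts had 0 reads in both Wt libraries and 582 lower ones had 0 reads in both DKO libraries.

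Individual transcripts show these changes library by library. The transcript ENSMUST00000029919.6, of 3655 bases, had 34.2 and 11.6 CPM in DKO 1 and DKO 2, and 18394 and 14146 CPM in Wt 1 and Wt 2. It was the transcript with the most reads in Wt, and the groups lie far apart (log2 fold change -9.54, edgeR adjusted p = 0.0375). ENSMUST00000195901.1, of 261 bases, had 0 and 10 reads in DKO and 11600 and 16844 in Wt, which is 707 and 661 CPM but 27202 and 23685 TPM. It thus stood in the Wt top 10 by TPM through an effective length of 24 bases (log2 fold change -11.51, edgeR adjusted p = 0.0375). In the other direction, ENSMUST00000084509.5, of 6273 bases, had 6784 and 5120 CPM in DKO and 619 and 690 in Wt. Both DKO values lie far above both Wt values (log2 fold change 3.10, edgeR adjusted p = 0.0375). ENSMUST00000199958.1, of 4901 bases, followed with 4274 and 4794 CPM in DKO and 464 and 507 in Wt (log2 fold change 3.13, edgeR adjusted p = 0.0356). ENSMUST00000090871.2, of 722 bases, was the transcript with the highest mean TPM in Wt, at 28901 and 24735, and had 29776 and 19262 TPM in DKO. Its groups overlap, and edgeR gave a log2 fold change of -0.35 (adjusted p = 0.604). The 6 called transcripts with the highest fitted change had 61.5 to 422 CPM in the DKO libraries and 0 in both Wt libraries. The 6 with the lowest had 93.5 to 553 CPM in the Wt libraries and 0 in both DKO libraries. A fold change cannot be given for these 12 beyond the limit set by 0 reads.

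TPM and reads gave unlike pictures of which transcripts were most abundant. The lists of 10 leading transcripts shared 8 between DKO and Wt by TPM and 5 by CPM. By TPM, 5 of the DKO 10 and 4 of the Wt 10 were at most 251 bases long, which is the median gap between length and effective length, and by CPM 0 were. The 8186 listed transcripts of this size have effective lengths of 1 to 20 bases, so that a few reads give a large TPM. They held 10.1%, 12.5%, 10.2% and 12% of TPM in DKO 1, DKO 2, Wt 1 and Wt 2, but 0.0629%, 0.0889%, 0.0712% and 0.0799% of reads. ENSMUST00000082407.1, of 204 bases, is an example, with 12657 and 38219 TPM in DKO and 17772 and 12445 in Wt, from 113, 360, 173 and 130 CPM. By CPM its DKO libraries lie on both sides of the Wt values. Long transcripts took a larger part of reads in DKO: those over 4000 bases held 20.1% and 19.4% in DKO and 17.3% and 16% in Wt. Called transcripts showed the same order, with a median length of 2705.5 bases for those higher in DKO, 2210 for those lower and 2061 for all tested. The part of length, or of RNA quality, in the calls was not tested.

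**Figure D4:**
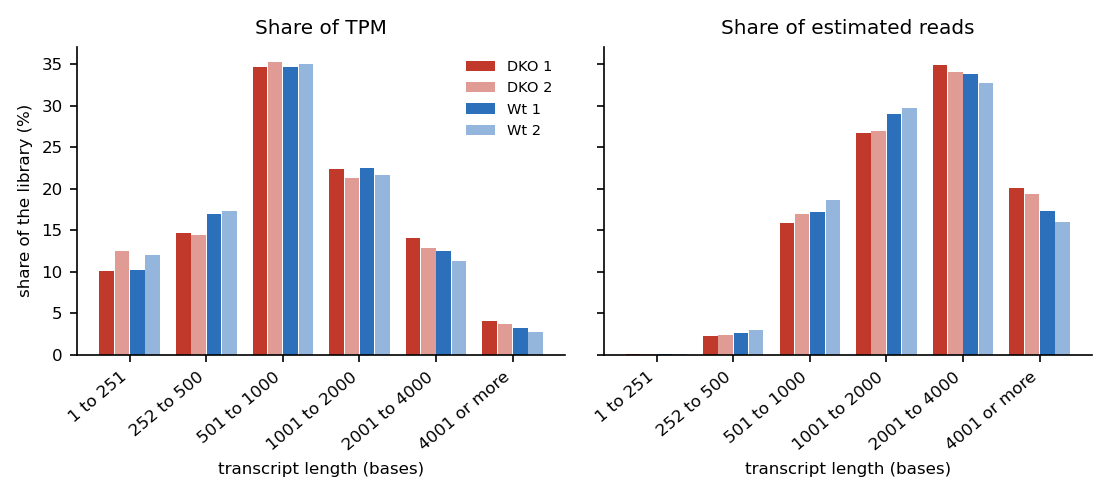
Share (%) of each library's TPM (left) and estimated reads (right) by transcript length in bases, DKO in red shades and Wt in blue shades. Transcripts of at most 251 bases hold 10.1% to 12.5% of TPM and under 0.1% of reads, and the class over 4000 bases is higher in DKO by either measure.

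Libraries of a group resembled each other more than libraries of different groups, but a single transcript could still be far apart within a group. Over 28229 transcripts with a mean of at least 1 CPM, the median absolute log2 ratio (pseudocount 1 CPM) was 0.328 between DKO 1 and DKO 2 and 0.270 between Wt 1 and Wt 2, or 1.26-fold and 1.21-fold. It was 0.724 to 0.785 over the 4 pairs of a DKO with a Wt library. The gap to the between-group pairs was present at each level, and within groups the spread narrowed from 0.434 in DKO and 0.333 in Wt at 1 to 3 CPM to 0.186 and 0.172 at 100 to 300 CPM. In the highest class, of 442 transcripts at 300 CPM or more, the DKO pair stood at 0.221 and the Wt pair at 0.173. The lists of the 100 transcripts with the highest TPM shared 82 between the DKO libraries, 87 between the Wt libraries and 61 to 67 between groups.

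**Figure D5:**
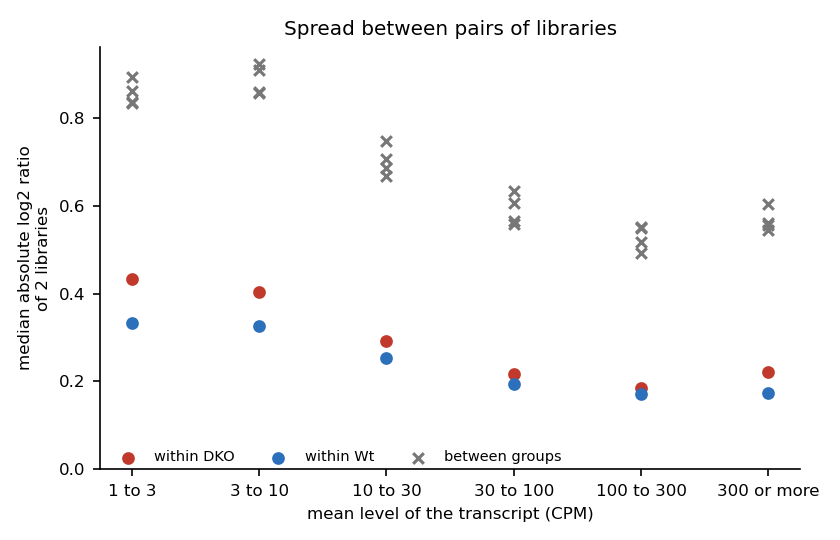
Median absolute log2 ratio between pairs of libraries (pseudocount 1 CPM) by mean level of the transcript in CPM, for the DKO pair (red), the Wt pair (blue) and the 4 pairs between groups (crosses). The DKO pair lies above the Wt pair in each class, and both lie below the pairs between groups.

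Large gaps inside a group were few among transcripts with many reads. Of 2060 transcripts with at least 100 CPM in DKO 1 or DKO 2, 18 differed more than 4-fold between them (0.874%), and of 1892 such transcripts in Wt, 12 did (0.634%). Between groups the share was 12.5% to 13.3%. Absence in 1 library was counted from a lower limit of 10 CPM. There 477 of 13087 transcripts reaching it in 1 DKO library had 0 reads in the other (3.64%), as did 369 of 12410 in Wt (2.97%). Because the limits differ, these shares cannot be set against those at 100 CPM. The most uneven DKO transcript, of 635 bases, had 292 CPM in DKO 1 and 0 in DKO 2, with 149 and 53.9 in Wt 1 and Wt 2. Another, of 2298 bases, had 188 CPM in DKO 1 and 0 in each other library. In Wt, a transcript of 546 bases had 167 CPM in Wt 1 and 0 in Wt 2, beside 310 and 330 in DKO. Of the 10 transcripts with the highest mean TPM in DKO, 5 were lower in DKO 1 than in DKO 2. Among them 2 were at most 251 bases long, with ENSMUST00000082407.1 above as an example, and 3 were longer. The first of these 3, of 678 bases, had 6348 and 16092 TPM in DKO and 9080 and 5961 in Wt. The second, of 684 bases, had 4927 and 13098 TPM in DKO and 11609 and 9390 in Wt. The third, of 1545 bases, had 4340 and 10962 TPM in DKO and 7973 and 5489 in Wt. For each of the 3 the DKO libraries lie on both sides of at least 1 Wt library, so a group mean of such a transcript rests on unlike values. How the division of reads between similar transcripts contributes to such gaps was not tested.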

How the data were processed

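RNA-seq measured 4 libraries, grouped by title as DKO and Wt, with 16403301 to 25494309 estimated reads. Each RNA file holds estimated counts per transcript, made by the authors with Salmon, and TPM from the same run, per the file headers. The gene table holds a mean normalized count, a signal scaled between libraries by the authors, with log2 fold changes, SEs and p-values of the authors' own comparison, per the file headers. For 1751 of its 17511 genes the p equals that of fold over SE within 0.01 in log10, so for the other genes the listed fold and SE do not return the p, and group levels worked out from these folds are approximate. Peak files hold fold enrichment, a ratio the authors' peak caller wrote, per the file format. The submitters' processing notes name Salmon 1.3.0, DESeq2, fastp, BWA, Bowtie2 and MACS2, with builds mm10 and GRCm38 and no roles. The use of strand in counting, like each tool's settings, was not given in the sources used here.

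Estimated counts were rounded and compared under R 4.3.3 by the two-sided quasi-likelihood test of edgeR 4.0.16, without a covariate. Libraries were scaled by TMM and transcripts filtered by filterByExpr. A call needed a p under 0.05 after adjustment by the method of Benjamini and Hochberg. The test was first run on simulated data. Nothing is concluded from that run for these libraries, because its settings and outcome are not given here. The spread between libraries in these data was a common dispersion of 0.441. DESeq2 1.42.0 and limma 3.58.1 served as alternatives. Tables and figures used pandas 2.3.3, numpy 2.4.6 and matplotlib 3.10.9 under Python 3.11.15. A planned test of isoform use was not run, since no table used here pairs transcripts with genes. For the same reason no other scaling, left-out library or block could be tried on gene values. Gene positions are RefSeq's for GRCm38.p6, matched for 14893 genes, and peaks count as in a promoter window when they overlap it.

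The members and the 24 lists were chosen with earlier results of these data known. The naming rule took the 10 transcripts with the highest mean TPM in each group, 6 called transcripts at either end of fold change with at least 50 CPM, the 3 most uneven per group, the 20 genes with the most counts per group without model names, Cdx1 and Cdx2, and up to 4 called genes per list. A gene that this rule takes is not reported here. Few transcript identifiers are printed, because they have no gene names here. ENSMUST00000029919.6, ENSMUST00000084509.5 and ENSMUST00000199958.1, and list members beyond the rule (Rbm10, Tra2a, Hnrnpc, Srsf1, Tpm1, Ddx3y, Kdm5d and Uty), were named after their values were seen. So was Gsdmc4, which is in none of the lists and was picked for its SE.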

Additional observations from a re-analysis of the deposited data

How the results depend on the processing

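The transcript counts depended on the test. Against 1910 higher and 1671 lower with edgeR, DESeq2's Wald test called 5048 and 4559, and edgeR without a filter on low counts called 111 and 111 of 78477. Leaving out 1 library in turn gave 0 to 0 calls in either direction with edgeR, whichever library was left out (DKO 1, DKO 2, Wt 1 or Wt 2), and 8428 to 10554 transcripts at an unadjusted p under 0.05, against 12065 with all 4. Such fits assume that the lone library varies like the other group. With the replicate number as a replicate block, edgeR called 0 higher and 0 lower, with 8221 at an unadjusted p under 0.05 and a smallest adjusted p of 0.172. The labels do not state that the numbers pair the libraries. Deviations of same-numbered libraries correlated at 0.00163 over 27549 transcripts, which cannot exclude a pairing that acts on few transcripts or weakly. With all 4 libraries the smallest edgeR adjusted p was 0.033, so calls lie close to the threshold. DESeq2's size factors, a filter of 1 TPM and limma on log2(TPM + 1), which called 2862 higher and 1552 lower, kept each count within 1.5 times. In the authors' deposited table, 1925 genes were higher by at least 2-fold against 3231 at any size, and readjusting p over genes with a mean of at least 50 counts gave 3078 higher and 2434 lower. Of the named genes, 105 kept their side of the threshold under that filter, Lgals4 came to pass it, and Cd3d has too low a mean for it. The counts of calls within the lists stayed within 1.5 times in 43 of 48 cases under that filter (5 moved) and in 31 with the 2-fold limit (17 moved). The share of the leading 100 transcripts by TPM in place of reads was 29.6% and 34.1% for DKO, 37.4% and 38.4% for Wt. The median spread with a pseudocount of 5 CPM was 0.207 in DKO and 0.169 in Wt. The causes of these shifts were not tested. List sums without a single gene that moves their ratio by over 1.5 times, a choice made after seeing the data, stand beside those sums; that of the colonocyte list was 581088 in Wt and 248689 in DKO, or 454759 and 127217 without Ceacam1, worked out from the authors' deposited table. In depth, a count of 0 allows up to 0.118 to 0.183 CPM.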

Other observations

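The gene classes of the authors' deposited table differed in how many members were called. In that table the median SE was 0.85 at a mean under 50 counts and 0.28 at 50 or more. The part of count level in the differences between classes was not tested. Of 1174 long noncoding RNA genes, 73 were higher (6.22%) and 134 lower (11.4%) in DKO in the authors' deposited table, with a median log2 fold change of -0.14. In the authors' deposited table, 21.1% of 14532 protein-coding genes were higher and 19.9% lower. The long noncoding genes together held 0.923% of the DKO counts and 0.457% of the Wt counts, worked out from the authors' deposited table, so their summed level and the balance of their calls point in different directions. Whether a few abundant genes carry the summed level was not tested. By the authors' deposited table, 55 of 96 immunoglobulin variable genes (57.3%) and 7 of 11 constant genes (63.6%) were lower, and 0 of either kind higher. Over all genes, 18.3% were called lower and 18.5% higher. Processed pseudogenes, which share sequence with their parent genes, had 47 of 997 members called higher (4.71%) and 34 called lower (3.41%) in the authors' deposited table. Among the 100 genes with the most counts, Gsdmc4, of the gasdermin family, had the widest SE, 0.97, at a log2 fold change of -5.93 in the authors' deposited table.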
